A study of Homo sapiens with 12 samples.

Results

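The promoters of 8 genes that encode secreted antagonists of Wnt signalling were examined in 769 and 786, as the labels name 2 lines of clear cell renal cell carcinoma (ccRCC), a kidney cancer. Each promoter was taken as all CCGG sites within 2000 bp of the gene's hg19 start, a rule that uses positions only and no measured value. The 8 windows held 106 of the 996035 CCGG sites listed on chromosomes 1 to 22 and X. Methylation was read by HELP-tagging, which counts short sequence tags beside CCGG sites cut by a restriction enzyme. HpaII needs an unmodified inner cytosine to cut, whereas MspI also cuts the methylated site and so counts what HpaII could have cut. More HpaII tags per MspI tag therefore means less modification. For each line there were 2 samples treated with AA, which the series title names as ascorbic acid, beside 1 control, and each of these 6 DNA samples had 1 HpaII and 1 MspI library. No dose, time or passage is given in the labels, and nothing there says that the 2 AA samples of a line are separate cultures. SDs therefore measure only the spread between these samples. The p-values also draw on the spread of the other tested regions across the same samples. Both lines are cancer lines with no normal kidney sample beside them, and a difference between them compares 1 line with 1 line.

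Wnt proteins bind a Frizzled receptor together with the co-receptors LRP5 or LRP6 and so keep beta-catenin from being degraded. Secreted frizzled-related proteins (SFRP1, SFRP2, SFRP4 and SFRP5) carry a domain like that of Frizzled and bind Wnt proteins outside the cell, as does WIF1 through a domain of its own. The Dickkopf proteins DKK1 and DKK2 act on the co-receptors, and DKK3 is a divergent member of that family. The CpG-rich promoters of several of these genes are known for gaining methylation in tumours, those of the kidney included.

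In hg19 the windows lay on chromosome 4 from 154708228 to 154712228 for SFRP2 and on chromosome 7 from 37954525 to 37958525 for SFRP4. Those of SFRP5 and DKK1 lay on chromosome 10, from 99529756 to 99533756 and from 54072041 to 54076041. The WIF1 window ran from 65513346 to 65517346 on chromosome 12. That of DKK2 ran from 107955453 to 107959453 on chromosome 4, and that of DKK3 from 12028917 to 12032917 on chromosome 11. All but DKK1 are transcribed from the minus strand. Each window covers 2000 bp before the start and 2000 bp of the gene, and its exons and introns were not annotated here. Listed CCGG sites numbered 22 for SFRP1, 21 for SFRP2, 15 for DKK1, 12 for WIF1, 10 for DKK3, 9 each for SFRP4 and SFRP5, and 8 for DKK2.

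RefSeq promoter sequences were at hand for 5 of the 8 genes. In 4 of them the spacing of at least 2 CCGG sites matched listed sites near the start, with shifts of 1 to 107 bp in size. No such check could be made for SFRP1, WIF1, DKK2 and DKK3. The next sequences are GRCh38.p14 and are written 5′ to 3′ on the gene's strand, with CCGG in capitals. The DKK1 and SFRP5 stretches are the 250 bases before the start, chr10:52314031-52314280 on the plus strand and chr10:97772000-97772249 on the minus strand. They are shown because every listed CCGG of the DKK1 stretch lacked HpaII tags, while that of SFRP5 had them.
DKK1: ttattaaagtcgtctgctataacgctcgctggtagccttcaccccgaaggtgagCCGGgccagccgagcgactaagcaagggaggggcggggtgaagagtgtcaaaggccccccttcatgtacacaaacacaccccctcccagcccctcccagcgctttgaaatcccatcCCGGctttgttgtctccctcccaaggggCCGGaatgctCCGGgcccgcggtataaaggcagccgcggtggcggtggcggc
SFRP5: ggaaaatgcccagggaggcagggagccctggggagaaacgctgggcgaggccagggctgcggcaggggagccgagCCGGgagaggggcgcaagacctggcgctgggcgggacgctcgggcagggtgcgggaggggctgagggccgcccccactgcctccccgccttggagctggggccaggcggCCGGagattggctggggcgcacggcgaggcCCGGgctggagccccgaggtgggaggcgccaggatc
The DKK1 stretch holds 4 CCGG and the SFRP5 stretch 3, and 58.5% of the 35116 RefSeq promoters in the table hold at least 1 in the same 250 bases. CCGG reads the same on both strands. In DKK1, sites at -194, -78 and -40 bp from the start of the rule were listed, with 85, 14 and 37 MspI tags over the 6 libraries. HpaII gave 0 tags at each of these 3 in all 6 libraries. In SFRP5, sites at -174, -65 and -35 bp held 25, 89 and 78 MspI tags and 6, 49 and 82 HpaII tags. Of the 137 HpaII tags at these 3 SFRP5 sites, 116 came from 786 and 21 from 769, beside 154 and 38 MspI tags. The HpaII split thus largely follows that of MspI.
Short runs with 2 CCGG each are shown for SFRP2 (chr4:153789034-153789062, minus strand) and SFRP4 (chr7:37916770-37916799, minus strand), where the pair placed the start.
SFRP2: gctcccCCGGgtcggagccccCCGGagct
SFRP4: ggagtCCGGgactggagctgcCCGGgcggg
At the 2 SFRP2 sites, 21 and 36 bp past the start, HpaII gave 28 and 0 tags, beside 0 and 10 MspI tags. All 28 came from 1 library, the 769 control. At the 2 SFRP4 sites, 130 and 146 bp past the start, HpaII gave 6 and 90 tags, beside 5 and 58 MspI tags.

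HpaII libraries held 160231 tags on chromosomes 1 to 22 and X in the 786 control and 2662391 to 9618660 in the other 5. MspI libraries held 3472351 to 11431291. The level of a promoter is given as a ratio, its share of a library's HpaII tags divided by its share of the MspI tags of the same DNA, so that 1 is the genome-wide mean. In the shallow 786 control, 3 HpaII tags, taken as the upper limit that a count of 0 allows (one-sided), correspond to a ratio of 1.47 at SFRP1 and 0.371 at DKK1. A ratio of 0 there does not show a modified promoter. These limits and the 95% exact binomial intervals below (two-sided) cover counting error only, since the libraries went through PCR and carry no molecular identifiers. As a yardstick, the promoter of GAPDH, a glycolytic gene used in every cell, had its lowest ratio in the 786 control and ratios of 2.01 to 5.20 in the other 5 DNA samples. Tested 4 kb tiles with 16 or more reference CCGG sites had median ratios of 0.911 in the 786 control and 1.47 to 1.80 in the other samples.

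**Figure D1:**
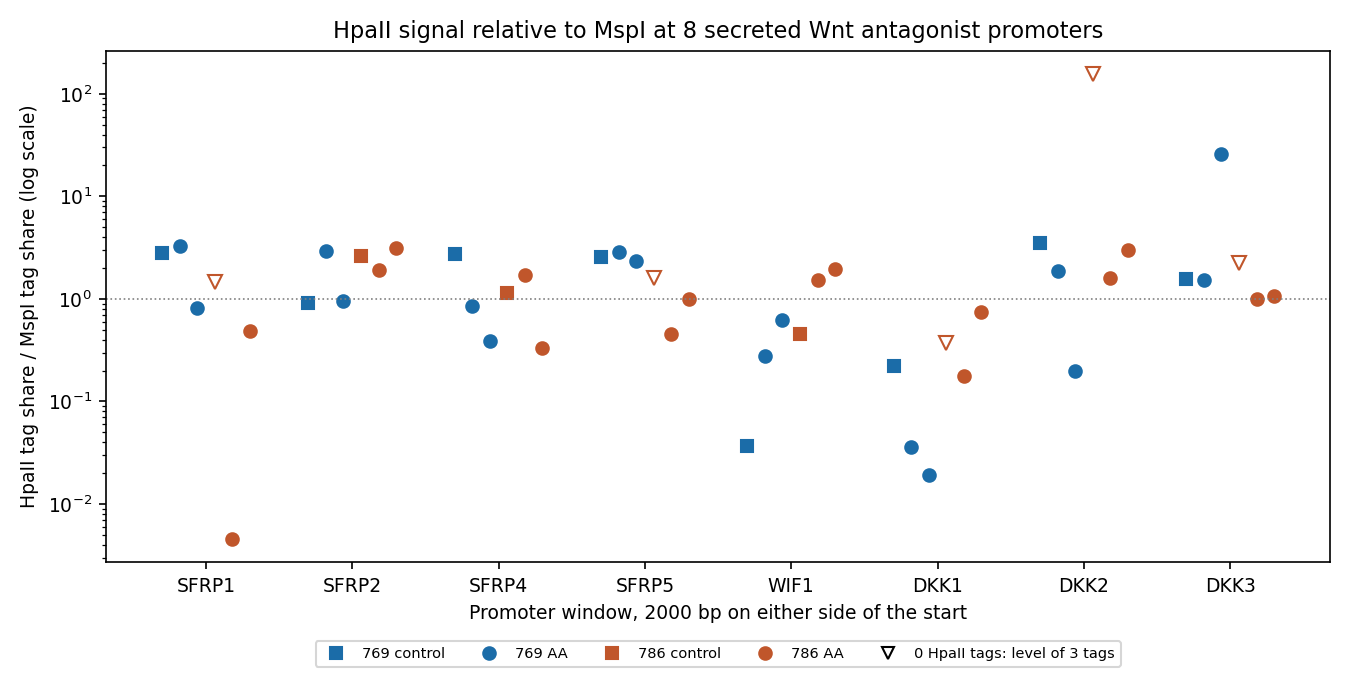
HpaII tag share divided by MspI tag share (log axis) for each promoter window in each of the 6 DNA samples. Squares are controls, circles are AA samples, blue is 769 and orange is 786, and open triangles mark 0 HpaII tags at the ratio of 3 tags. SFRP1 in 786 AA replicate 1 is the lowest point, at 0.00455, and the triangle of DKK2 at 156 rests on 1 MspI tag.

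SFRP1, whose window ran from 41164980 to 41168980 on hg19 chromosome 8, had more HpaII tags in 769 than in 786 beside like numbers of MspI tags. The 769 control had a ratio of 2.81, and the 769 AA samples had 3.31 (replicate 1) and 0.820 (replicate 2). The 786 control had a ratio of 0, and the 786 AA samples had 0.00455 (replicate 1) and 0.489 (replicate 2). All 3 samples of 769 stood above all 3 of 786, though the limit for the 786 control, 1.47, lies above 769 AA replicate 2. The 786 AA replicate 1 library gave 1 SFRP1 tag, or 0.104 tags per 1000000 of its library (95% exact interval 0.00263 to 0.579), against 16.5 to 78.6 in 769. MspI tags in the same window were 106 to 130 in 786 and 70 to 223 in 769. HpaII tags were found at 8, 16 and 8 of the 22 SFRP1 sites in the 769 samples and at 0, 1 and 2 in the 786 samples. In 786 AA replicate 2, 34 of the 35 tags lay at 1 site, 671 bp past the start, where the MspI count of that sample was not whole (16.5). That site also had 113, 46 and 2 HpaII tags in 769.

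The SFRP2 promoter carried HpaII tags in every sample. Its ratio was 0.919, 2.92 and 0.949 in the 769 control, AA replicate 1 and AA replicate 2, and 2.62, 1.91 and 3.15 in the same order in 786. The 786 control value rests on 5 HpaII tags at 1 site. The 2 lines overlapped, also between the AA samples alone. In 786, sites from -1107 to -1874 bp upstream also gave HpaII tags, for example 71 at -1107 bp and 58 at -1628 bp, where 769 had 0 at both. These 2 sites had 4 and 0 MspI tags in all, and no ratio is given for them. Before the start the window held 78 HpaII tags in 769, all of them at -371 bp, and 227 in 786.

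For SFRP4, with 9 sites, the ratio was 2.72 in the 769 control, then 0.861 and 0.389 with AA, and 1.13, 1.72 and 0.331 in the 786 control, AA replicate 1 and AA replicate 2. The 786 control value rests on 1 HpaII tag, and 3 tags would give 3.39. The ranges of the lines overlapped, also between the AA samples alone. The HpaII tags of SFRP4 lay in different places. The site 222 bp past the start held 172 in 769 and 2 in 786, beside 100 and 29 MspI tags. That at 871 bp held 0 in 769 and 83 in 786, beside 58 and 54 MspI tags. All 83 came from AA replicate 1, whose MspI library had 0 tags there.

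SFRP5 had ratios of 2.53, 2.88 and 2.33 in 769 (2.58 ± 0.277, SD, n = 3) and of 0, 0.451 and 0.996 in 786. The measured values of the lines did not overlap. The limit for the 786 control, 1.59, lies above both AA samples of 786 and below the lowest value of 769, 2.33. HpaII tags of 769 were mostly downstream, with 210 past the start and 21 before it, beside 75 and 38 MspI tags. Those of 786 were mostly upstream, with 25 past the start and 116 before it, beside 152.5 and 154 MspI tags. Relative to MspI, the lines thus differed mainly past the start. The largest single site of 769, 520 bp past the start, held 111 of its 231 tags and had no MspI tag in that line.

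WIF1 was the only one of the 8 whose ratio stood above the control of its line in 4 of 4 AA samples, as in 20.1% of all tested regions. It was so also for 3 of 21 other Wnt pathway promoters (WNT3, WNT6 and ROR2) and for the reference promoter TBP, named here after their values were seen. For WIF1 the 769 control had 0.0371, against 0.280 and 0.628 with AA (replicates 1 and 2). In 786 it was 0.454, 1.54 and 1.94 in the same order. The 769 control gave 5 HpaII tags, 0.990 per 1000000 (95% exact interval 0.321 to 2.31), against 14.3 (11.5 to 17.6) and 19.5 (14.6 to 25.6) with AA. The 786 control gave 2 tags, 12.5 per 1000000 (1.51 to 45.1), an interval that reaches the lower bounds of the AA samples (41.0 and 43.8). HpaII cutting at WIF1 was confined in these libraries almost wholly to sites 350, 381 and 458 bp past the start. They held 766 of the 768 tags. The 8 sites before the start gave 2 HpaII tags in all beside 224 MspI tags, and those past the start 766 beside 999. The site at 381 bp held 5 HpaII tags in 769 and 394 in 786, beside 352 and 174 MspI tags. That at 350 bp held 113 in 769 and 211 in 786, beside 232 and 238 MspI tags.

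**Figure D2:**
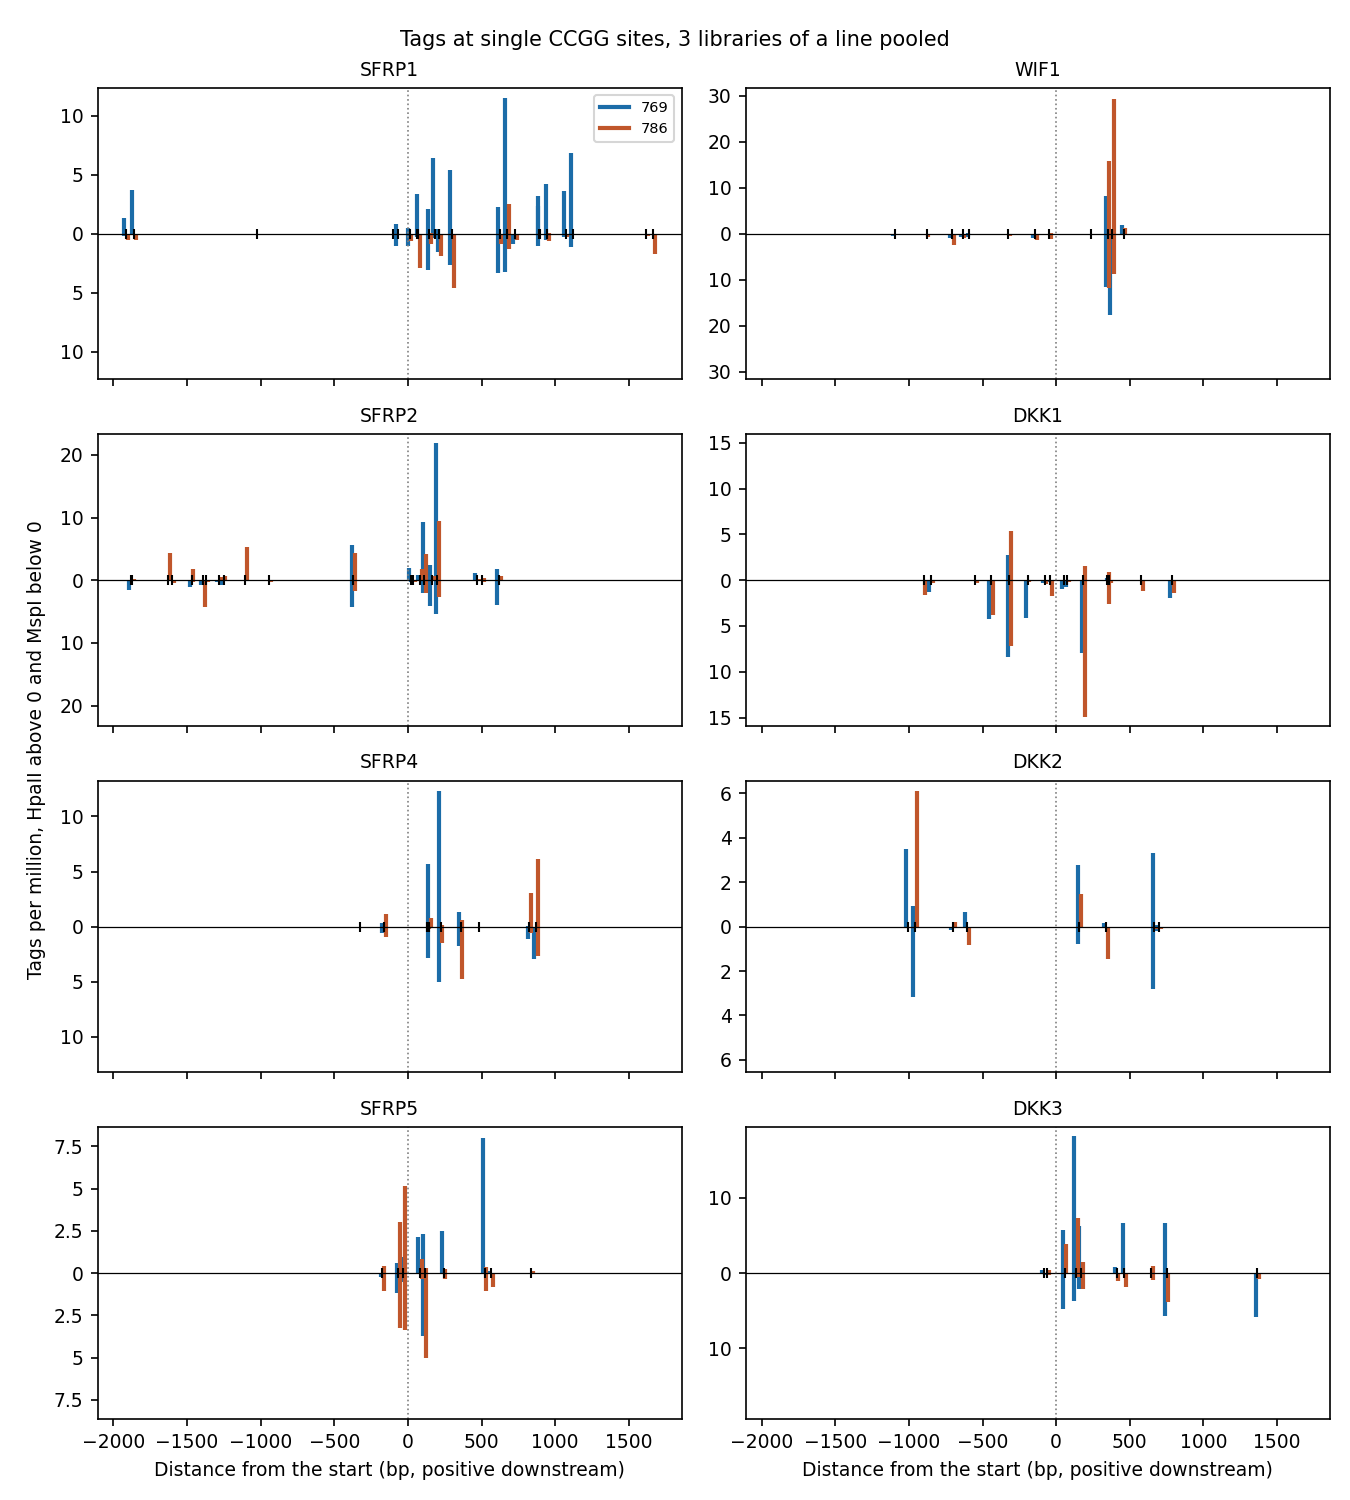
Tags per 1000000 at each CCGG site (black ticks) against distance from the start in bp, HpaII drawn above 0 and MspI below it, with the 3 libraries of 769 (blue) and of 786 (orange) pooled and drawn side by side. SFRP1 shows HpaII tags over the first 1120 bp in 769 and nearly none in 786, WIF1 has nearly all of them at 350 to 458 bp, and DKK1 has MspI tags across the window with few HpaII tags.

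Of the Dickkopf promoters, DKK1 had the lowest HpaII signal relative to its MspI tags. Its ratio was 0.223, 0.0362 and 0.0192 in the 769 control, AA replicate 1 and AA replicate 2, and 0, 0.178 and 0.748 in 786. Over all libraries it gave 149 HpaII tags beside 1330 MspI tags. HpaII tags were found at 5 of its 15 sites, and 111 of the 149 lay at -317 bp. Of 8 DKK1 sites with at least 10 MspI tags in 769, 5 had no HpaII tag in that line, and the count was the same in 786. In 786 AA replicate 2, which had the highest ratio, 33 of the 37 tags lay past the start, at 185 and 345 bp.

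DKK2 and DKK3 had too few MspI tags in 1 library each to be tested, with 1 tag at DKK2 in the 786 control and 7 at DKK3 in 769 AA replicate 2. DKK2 gave ratios of 3.55, 1.88 and 0.199 in the 769 control, AA replicate 1 and AA replicate 2, and 1.60 and 3.00 in the 786 AA samples, with 0 in the 786 control. The lines overlapped. DKK3 gave 1.57 and 1.51 in the 769 control and AA replicate 1, and 1.00 and 1.06 in the 786 AA samples. Its value of 25.7 in 769 AA replicate 2 rests on those 7 MspI tags beside 138 HpaII tags. In tags per 1000000 the DKK3 window held 40.6 to 51.8 from HpaII in the 3 samples of 769 and 14.1 and 14.2 in the 786 AA samples. MspI gave 25.9, 29.7 and 2.02 in the 769 control, AA replicate 1 and AA replicate 2. It gave 14.1 and 13.4 in the 786 AA samples, so part of the HpaII gap is also seen with MspI. The 786 control had no HpaII tag at DKK3, where 3 tags would give a ratio of 2.26.

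The number of sites cut is given beside that in other regions. Over the 8 windows, HpaII tags were found at 21, 54 and 24 of 106 sites in the 769 control, AA replicate 1 and AA replicate 2, and at 3, 29 and 36 in 786. This is 19.8%, 50.9% and 22.6% in 769 and 2.83%, 27.4% and 34.0% in 786. Among all listed sites in tiles with 16 or more reference CCGG sites, the shares were 23.4%, 49.5% and 27.9% in 769 and 6.54%, 42.8% and 45.8% in 786. Among all listed sites they were 10.6%, 27.5% and 13.4% in 769 and 3.43%, 26.1% and 27.9% in 786. Only SFRP1, SFRP2 and DKK1 have 16 or more reference sites, so these tiles are richer in CCGG than 5 of the 8 windows, and no difference was tested.

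**Figure D3:**
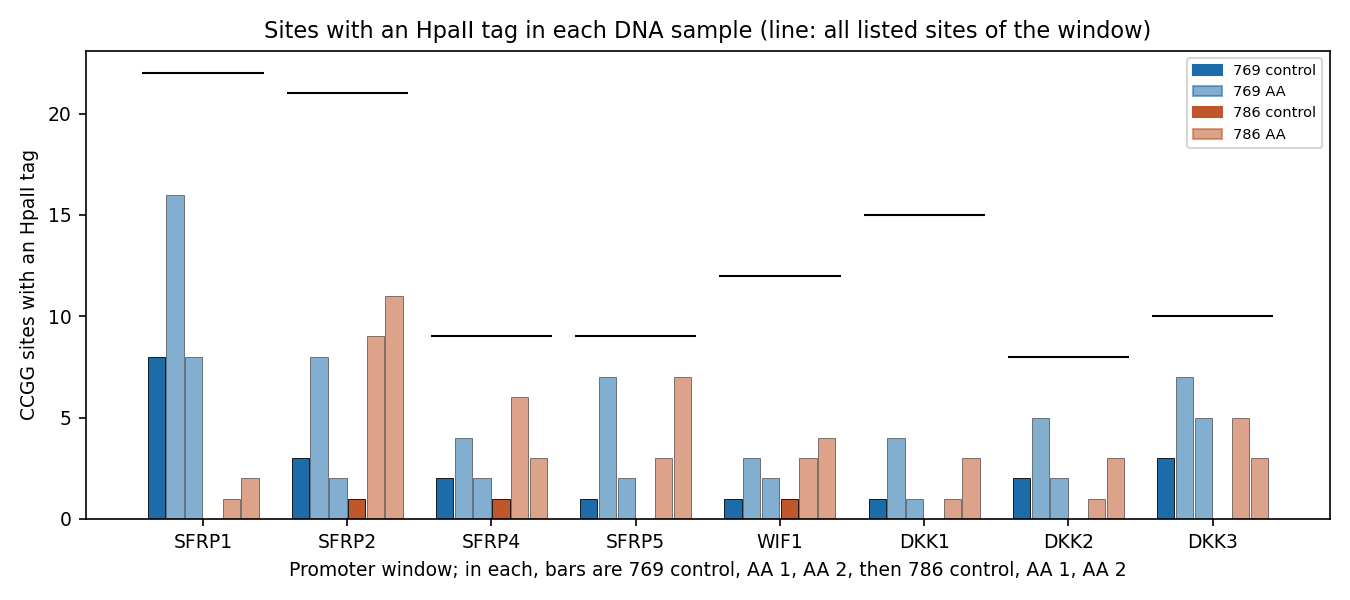
Number of CCGG sites with at least 1 HpaII tag in each DNA sample, by promoter window, from 769 control to 786 AA replicate 2, with a black line at the number of listed sites. SFRP1 has 8 to 16 sites in 769 and 0 to 2 in 786, and the 786 control has at most 1 site in any window.

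The first test compared the lines. Counts were fitted with edgeR's quasi-likelihood test over 29921 regions, the promoter windows and 4 kb tiles with enough tags, and p-values were adjusted over all of them by the Benjamini-Hochberg method. Of the 6 promoters tested, 0 passed an adjusted p under 0.05, beside 2.39% of all regions. At an unadjusted p under 0.05 there were 2, SFRP1 and WIF1, beside 15.7% of all regions, and DESeq2 called the same 2 beside 13% of all regions. SFRP1 differed most among the 6, lower in 786 by a log2 fold of -4.75 ± 1.57 (SE), for which the edgeR adjusted p was 0.101. The adjusted p for SFRP1 ran from 0.00294 to 0.643 over the alternatives. It passed without 786 AA replicate 2 (edgeR adjusted p = 0.0197), with its fullest site left out (0.0131), with only whole-count sites (0.00294) and with DESeq2 (0.0256). The fullest site of SFRP1, 671 bp past the start, is also its only site with non-whole counts. It held 34 of the 35 tags of 786 AA replicate 2. The edgeR alternatives that passed thus all left out these same tags and are not separate support. SFRP1 lay furthest from passing without 786 AA replicate 1, at -2.70 (0.643). WIF1 was higher in 786, at 2.28 ± 1.04 (SE, edgeR adjusted p = 0.267, range 0.0395 to 1 over the alternatives, the lowest with DESeq2). With its fullest site left out WIF1 was at -0.25. SFRP5 stood at -2.68 ± 1.67 (SE), DKK1 at 1.83 ± 1.55, SFRP2 at 0.69 ± 0.99 and SFRP4 at -0.24 ± 1.59, and none of these reached an unadjusted p under 0.05. The median over the 6 was 0.22, beside 0.19 over all regions. The 3 ratios of each line did not overlap for 2 of the 6, SFRP1 and SFRP5, beside 14.6% of all regions.

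**Figure D4:**
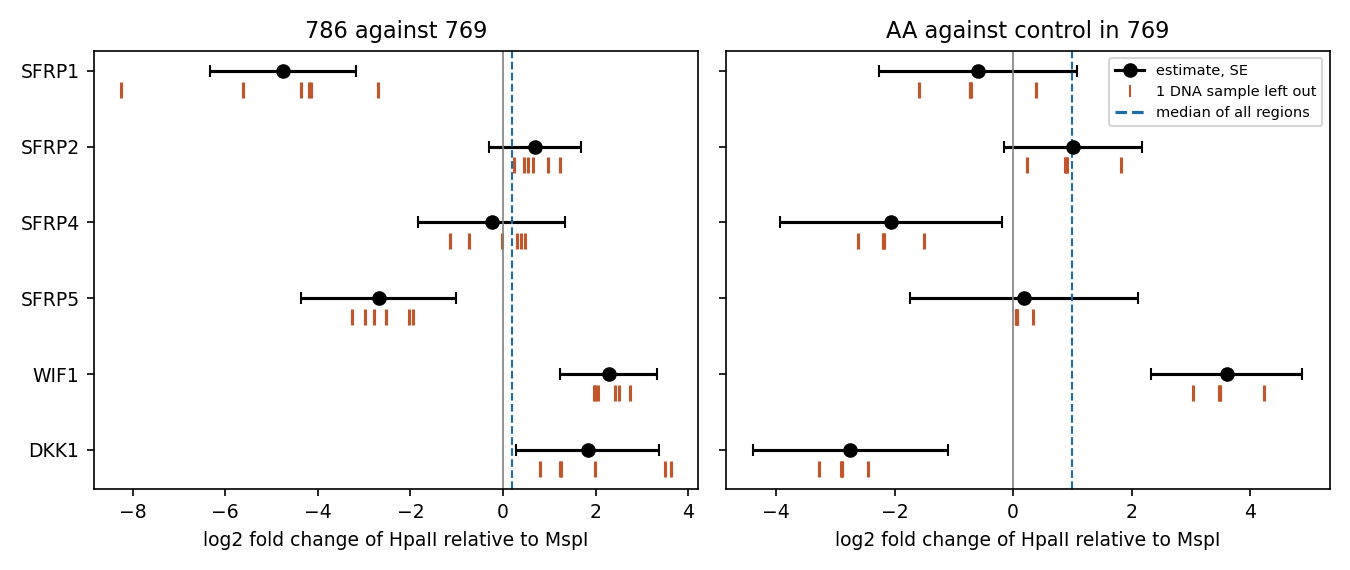
log2 fold change of HpaII relative to MspI for the 6 tested promoters, 786 against 769 (left) and AA against control in 769 (right), with SE bars. Orange ticks are the values with 1 DNA sample left out, and the dashed line is the median of all regions. On the left SFRP1 and SFRP5 stay below 0 and SFRP2, WIF1 and DKK1 above it with any 1 DNA sample left out, while SFRP4 crosses 0.

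The second test compared AA with control, with 1 control in each line, so that a property of the control library and AA cannot be told apart. Over both lines 0 of the 6 promoters passed in edgeR, beside 0.371% of all regions. WIF1 alone had an unadjusted p under 0.05, beside 11.9% of all regions, and DESeq2 called 0 of the 6, beside 2.73%. WIF1 stood at 3.05 ± 1.18 (SE), for which the edgeR adjusted p was 0.274. The median over the 6 was 0.19, beside 1.25 over all regions, which as a whole lay above 0. That regional median was 0.50 with CCGG-rich tiles only. It was 0.046 with 10 or more HpaII tags in every library, a filter that none of the 6 passed. Tested tiles with 0 HpaII tags made up 35.7% in the 769 control and 52.9% in the 786 control. In the AA samples they made up 6.70% to 27.4%. The other promoters were SFRP5 at 1.14, SFRP2 at 0.68, SFRP1 at -0.30, DKK1 at -0.36 and SFRP4 at -1.34, each with an SE over 1.

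In 769 alone, 0 of the 6 passed in edgeR, beside 1.65% of all regions, and WIF1 alone had an unadjusted p under 0.05, beside 15% of all regions. WIF1 stood at 3.60 ± 1.27 (SE, edgeR adjusted p = 0.173, range 0.0177 to 1 over the alternatives), and DESeq2 called it, beside 11% of all regions. DKK1 stood at -2.74 ± 1.64 and SFRP4 at -2.06 ± 1.87, lower in 2 of 2 AA samples each. SFRP2 stood at 1.01 ± 1.16, SFRP1 at -0.60 ± 1.67 and SFRP5 at 0.18 ± 1.93.

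In 786 alone, 0 of the 6 passed in edgeR, beside 0.0969% of all regions, with 0 at an unadjusted p under 0.05, beside 9.5%, and 0 in DESeq2, beside 0.287%. The 786 control had no HpaII tag at SFRP1, SFRP5 and DKK1, so fitted folds of these are not given. WIF1 stood at 2.31 ± 1.43 (SE), SFRP2 at 0.28 ± 1.31 and SFRP4 at -0.18 ± 2.53, beside a median of 3.33 over all regions. That median was 0.97 with CCGG-rich tiles only and 0.074 with 10 or more HpaII tags in every library. At SFRP1 and SFRP5 both AA ratios of 786 lie under the ratio of 3 control tags, and no rise was detectable at this depth. At DKK1 only AA replicate 2 lies above it, at 2.01 times the ratio of 3 tags in the control library, with the counting error of the other counts not included. The difference of the AA contrasts between the lines was called for 0 of the 6 in edgeR, beside 0.0836% of all regions, with DKK1 alone at an unadjusted p under 0.05, beside 10.8%, and 0 in DESeq2, beside 3.43%.

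Other Wnt pathway promoters were taken from a list of 50 genes, of which 21 could be placed by their CCGG spacing, with 3 further antagonists, 7 Wnt ligands, 5 receptors or co-receptors and 6 intracellular members, and 19 were tested. In edgeR 0 of the 19 were called in any of the 5 comparisons, beside 0.0836% to 2.39% of all regions. At an unadjusted p under 0.05 there were 3 between the lines, beside 15.7% of all regions, and 1 for AA over both lines, beside 11.9%. For AA there were 2 in 769, beside 15%, and 1 in 786, beside 9.5%. The difference of the AA contrasts had 2, beside 10.8%. DESeq2 called 2, both for AA in 769: SHISA2, a Wnt and FGF antagonist kept in the endoplasmic reticulum, and WNT1, a ligand, named here after their values were seen. These are 2 of 19, beside the 11% of all regions that DESeq2 called there, a share near the background. Both stood lower with AA, at -2.43 and -2.41 (DESeq2 adjusted p = 0.0350 and 0.0170). Between the lines, 15 of the 19 had a negative log2 fold change and the median was -0.50, beside 46% negative and a median of 0.19 over all regions. In the fit with CCGG-rich tiles only, 53.9% of regions were negative and their median was -0.11. Whether the list differs from these was not tested.

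The pathway promoter most like each member, by Pearson's r of the log2 ratio over the 6 DNA samples, was picked from 21 and is a description only. For WIF1 it was TCF7L1, a transcription factor of the pathway, with r = 0.91, and for DKK3 it was ROR2, a Wnt5a receptor, with r = 0.97. SFRP5 paired with APCDD1 (r = 0.87), SFRP4 with LRP5 (0.77), SFRP1 with WNT7A (0.61), SFRP2 with TCF7L1 (0.61), and DKK2 and DKK1 with WNT10A (0.67 and 0.53). All points share the libraries and their depth. The highest log2 ratio of DKK3, 4.59 in 769 AA replicate 2, rests on 7 MspI tags. That of DKK2, 4.11 in the 786 control, comes from 0 HpaII tags and 1 MspI tag with the added 0.5 tags. The r values of these 2 thus lean on samples with too few tags to be tested. APCDD1 had ratios of 4.00, 2.17 and 1.22 in 769 and 0, 0.830 and 0.575 in 786, so it also stood higher in each sample of 769.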

How the data were processed

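HELP-tagging libraries of 6 DNA samples, each cut with HpaII and with MspI, were used. Expected counts of tags left and right of each CCGG site, with their sum, were deposited by the authors, 1 file a library, and were not normalized, adding up to the total in the file header. Counts that are not whole, at 8.23% to 11.5% of the sites of a library, were kept in sums, which were rounded. Coordinates are hg19, per the submitters' processing notes, with the aligner not given in the sources used here. Per the labels' protocols the libraries were amplified in 18 PCR cycles.

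Tags were summed over the 8 windows, 21 pathway windows, 2 reference windows (GAPDH and TBP) and 4 kb tiles that overlap none of these. A region was tested with 10 or more MspI tags in every MspI library and 10 or more HpaII tags in the sum of the HpaII libraries. edgeR 4.0.16 (R 4.3.3) fitted terms for DNA sample, enzyme, enzyme by line and enzyme by treatment, with 3 residual degrees of freedom, and a second fit with treatment by line had 2. The spread of each region was drawn towards that of all regions, with 36.18 prior degrees of freedom in the first fit. Its p-values thus rest mostly on the spread shared by the regions. TMM factors were taken within each enzyme. The SE of an edgeR fold is the size of the log2 fold divided by the square root of the test's F statistic. Where a line's single control enters, its variation is taken to equal that of the rest. The fit was tested on simulated data with known changes, drawn with 1 dispersion of 0.42 for all regions. Between the lines it called 2.2% of 91 regions raised 8-fold in 786 and 73.6% of 87 raised 64-fold. Of its 69 calls, 3 were false. A promoter that was not called is therefore not shown to be unchanged. Log2 ratios used for likeness had 0.5 tags added.

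The members, lists and tests were chosen with earlier results of these data known. Starts of the pathway genes were written from general knowledge and used where at least 2 CCGG of the RefSeq sequence, and all but at most 1, matched listed sites at 1 shift within 2000 bp. The demand that at least 2 match was added after the files were read. Strands of the 8 genes come from general knowledge. Named genes are the 8 members, any pathway promoter called, and for each member the pathway promoter most like it. Alternatives were DESeq2 1.42.0, library totals, other low-count filters, windows of 1000 bp, CCGG-rich tiles only, thinning, leaving out the fullest site or sites with non-whole counts, a replicate block and leaving out each DNA sample. Python 3.11.15, numpy 2.4.6, pandas 2.3.3, scipy 1.17.1 and matplotlib 3.10.9 were used.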

Additional observations from a re-analysis of the deposited data

Results flagged for a closer look

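At DKK1 and DKK2 the measured AA ratios lay below the control in 769 and above it in 786, an order found in 13.5% of all tested regions, but the 786 control had 0 HpaII tags at both and no rise in 786 is established. At DKK1 both AA ratios of 769 were below the control, their mean 0.124 times the control, and both of 786 (0.178 and 0.748) were above a control with 0 HpaII tags, whose limit of 3 tags, 0.371, lies between them. The difference was tested in edgeR and did not pass after adjustment (unadjusted p = 0.0256, adjusted p = 0.361). At DKK2 both AA ratios of 769 were below the control, their mean 0.293 times the control, and both of 786 (1.60 and 3.00) lay far under 156, the ratio that 3 HpaII tags would give in a control with 1 MspI tag. That difference was not tested, because of this low MspI count. In groups of 3 or fewer samples no single sample was tested for standing apart.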

How the results depend on the processing

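Of 252 alternative values of log2 fold changes for the 6 tested promoters (786 against 769, AA over both lines and AA in 769), 226 kept their direction and their side of the threshold, 6 passed it where the reported value did not, and 20 turned direction, none of these 20 with a call. The count of promoters called between the lines, reported as 0, was 1 with the fullest site left out, beside 1.07% of all regions. It was 1 with whole-count sites only, which leaves out the same SFRP1 site, beside 3.49%, and 2 with DESeq2, beside 13%. Leaving out each DNA sample gave 0 to 1, with 1 without 786 AA replicate 2 (SFRP1), beside 1.02%. For AA in 769 it was 1 with DESeq2, beside 11%. Over all regions, the 716 calls between the lines ranged from 4 (10 HpaII tags in every library) to 3881 (DESeq2) over the alternatives. The 111 for AA over both lines ranged from 0 to 816, the 495 in 769 from 0 to 3300, the 29 in 786 from 11 to 371 and the 25 for the difference from 1 to 1025. The count of other pathway promoters called in any comparison, reported as 0, was 1 with no low count filter, with whole-count sites only and with the replicate block, 2 with DESeq2, and 0 to 1 with each DNA sample left out (1 without 786 AA replicate 1). It was SHISA2 each time, with WNT1 beside it under DESeq2.

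Between the lines, SFRP4 turned to 0.60 with its fullest site left out, and to 0.29 without both controls, an alternative added after the data were seen. It ran from -1.14 to 0.47 with a DNA sample left out, above 0 without either control or 786 AA replicate 2. WIF1 turned to -0.25 with the fullest site left out and ran from 1.96 to 2.75 with a sample left out, and DKK1 from 0.80 to 3.62. For AA over both lines, SFRP1 turned to 0.29 and SFRP2 to -0.59 with thinning. With the fullest site left out SFRP2 turned to -1.26 and DKK1 to 4.92. With a DNA sample left out SFRP1 ran from -0.96 to 0.61, above 0 without 769 AA replicate 2 or 786 AA replicate 1, and DKK1 from -0.996 to 0.12, above 0 without either AA sample of 769. For AA in 769, SFRP1 ran from -1.59 to 0.38, above 0 without 769 AA replicate 2. SFRP2 turned to -0.64 with thinning and -1.62 with the fullest site left out, SFRP5 to -0.23 with thinning, and DKK1 to 4.77 with the fullest site left out. The cause was not tested.

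The replicate block, a term for the AA sample number, turned SFRP5 in 769 to -0.0072 and left the promoter count at 0 in each of the 5 comparisons. The log2 ratio of AA replicate 1 minus that of replicate 2 had a Pearson's r of -0.020 between the lines over 29921 regions. With 1 such difference in each line, this cannot show whether samples of the same number were handled together. Without a control no AA count over both lines exists, and the line difference then compares the AA samples. Of 64 alternative median ratios per promoter and line, 56 moved by less than the SD of the 3 samples. With its fullest site left out WIF1 moved from 0.280 to 0.578 in 769 and from 1.54 to 0.738 in 786. Depth limits the 786 control most: its 160231 HpaII tags gave 8 in all at the 8 promoters.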
